A study of Saccharomyces cerevisiae with 9 samples.

Results

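The comparison described here set 3 libraries of *Saccharomyces cerevisiae* CAT-1 given the antifoam agent labelled Ind_Z against 3 control libraries, 6 of the 9 RNA-seq libraries of the series. CAT-1 is an industrial strain used in Brazilian fuel-ethanol plants. All 3 groups, the controls, Ind_Z and a second antifoam labelled Ind_B, were taken through 5 fed-batch fermentations in medium made from sugar cane molasses, with acid treatment of the recycled cells in between, and were collected 4 hours into the fifth. The labels give neither the composition nor the dose of an antifoam. They do not say whether libraries of a group came from separate cultures, so the p-values measure the spread between these libraries, which may be technical. The members were the table columns Ind_Z replicates 1 to 3 and the control columns control1, control12 and control13, with every gene of the table. The question was which genes, and of which functions, differed in cells fermenting with this antifoam.

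Antifoams are surface-active mixtures that meet the cell first at its wall and plasma membrane. In yeast, misfolded protein engages the heat shock transcription factor Hsf1, which drives chaperone genes through heat shock elements, and many other stresses engage Msn2 and Msn4, which bind a short stress response element. Sterol levels are sensed by the regulators Upc2 and Ecm22, the supply of hexoses by Mth1, Std1 and Rgt1, and the quality of the nitrogen source by GATA factors that govern genes such as *GAP1* and the *DAL* cluster.

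Library totals were 6585639 to 18245935 reads in control and 5900571 to 15091487 in Ind_Z. Spearman correlations over genes were 0.993 to 0.995 among the 3 Ind_Z libraries. One control stood apart. control13 reached 0.956 and 0.954 with control1 and control12, which reached 0.994 with each other, and its TMM factor was 0.757 against 0.927 to 1.19 in the other 8 libraries. Levels below are CPM, the deposited counts scaled to library size and TMM factors, listed for control1, control12 and control13 and for Ind_Z replicates 1, 2 and 3 in that order. Changes are log2 fold changes of Ind_Z over control ± SE, and the value in square brackets after a change is the same change without control13. Counts of calls, and for most lists the median, are also given without control13. A gene is called at an adjusted p under 0.05 in edgeR's quasi-likelihood test over all genes tested.

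The largest rises in Ind_Z were those of the hexose transporter genes *HXT2* and *HXT1*, and the chaperone and stress genes *HSP30*, *BTN2*, *SSA4* and *HSP104* also rose. The largest falls included *HES1*, *YHB1*, *ERG5*, *PBI1* and *GAP1*. In all 131 of 6137 genes were called (2.13%), 106 higher (1.73%) and 25 lower (0.407%) in Ind_Z, at adjusted p of 0.00588 to 0.0497. In every called gene the libraries of the groups did not overlap; over all genes tested, Ind_Z lay wholly above control for 827 (13.5%) and wholly below for 774 (12.6%). Of the called genes, 61 rose by at least 1 on the log2 scale and 9 fell by 1 or more. The median change over all genes was −0.03. Fold changes were below 0 for 3346 of the 6137 genes, and for 3198 of 6178 without control13. Without control13, 1213 of 6178 genes were called (19.6%), 809 higher (13.1%) and 404 lower (6.54%), and all 131 were among them with the same sign. The count was 22 without control1, 60, 21 and 16 without Ind_Z replicates 1, 2 and 3, and 64 without Ind_B replicate 1. DESeq2 called 446 genes, of which 293 were higher and 153 lower. The direction of all 131 held in each of the 9 fits that left out 1 library, and 16 genes were called in every such fit: *HXT1*, *HXT2*, *HSP30*, *BTN2*, *APJ1*, *YAR1*, *NCE102*, YNL194C, *ISF1*, *ECL1*, *MPF1*, *LAF1*, *MAY24* and YDL023C among the rises, and *HES1* and *PBI1* among the falls. The calls of all the other genes ended in 1 or more of these fits. *HSP104*, *ERG5* and *GAP1* were called in 2 of the 9 fits, and *SSA4* and *YHB1* in 5.

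**Figure D1:**
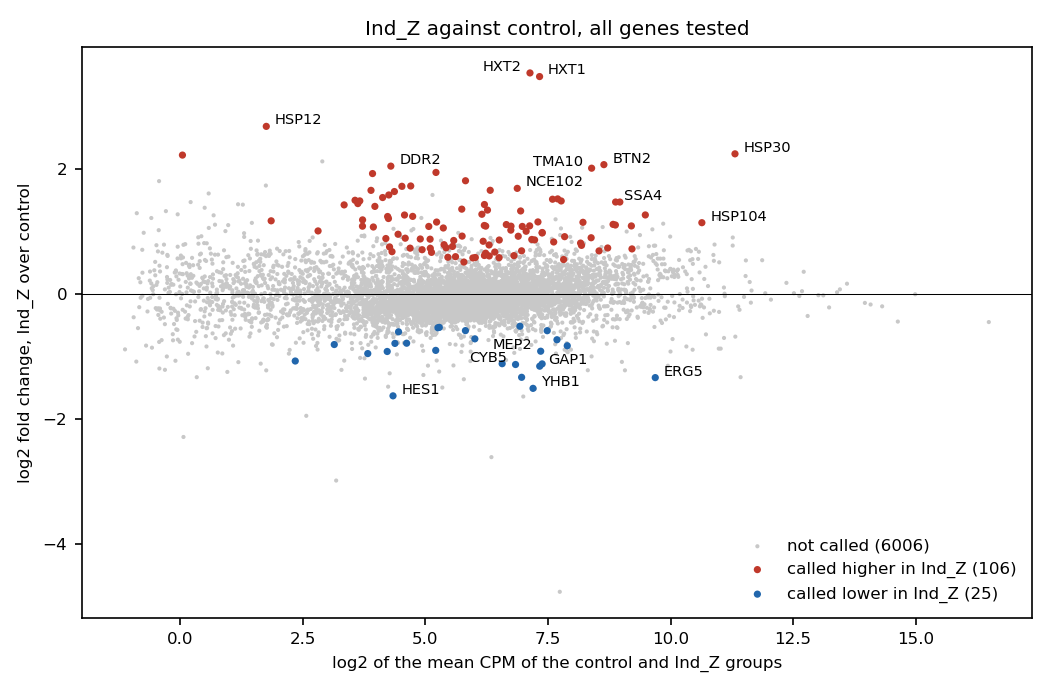
Log2 fold change of Ind_Z over control (y axis) against the log2 of the mean CPM of both groups (x axis) for the 6137 genes tested. Red points are the 106 genes called higher, blue points the 25 called lower and grey points the rest; HXT2 and HXT1 stand above 3 on the y axis and no called gene lies below −2.

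Of 8 genes on a list for the sequestration and disaggregation of misfolded protein, 5 rose and none fell, with a list median of 1.02 (0.98 without control13, where 6 rose). *BTN2*, whose product collects misfolded proteins at specific sites in the cell, was at 93.8, 225 and 142 CPM in control and at 549, 707 and 681 CPM in Ind_Z. It rose by 2.07 ± 0.28 [2.03] (adjusted p = 0.00696), and the highest control, control12, was still well under the lowest Ind_Z library. *CUR1*, which encodes the related sorting factor, was at 32.1, 58.1 and 28.7 CPM in control and 96.5, 107 and 121 CPM in Ind_Z (1.44 ± 0.23 [1.27]). *APJ1*, encoding a J-protein that aids in clearing aggregates, rose from 83.6, 116 and 99.95 to 251, 271 and 339 CPM (1.52 ± 0.19 [1.53]). *HSP104*, the disaggregase gene, was the most abundant of the 5, at 752, 1383 and 846 CPM in control and 2054, 2207 and 2329 CPM in Ind_Z (1.14 ± 0.23 [1.05]), and the J-protein gene *SIS1* rose by 0.90 ± 0.19 [0.91]. In this list control12 stood above the other controls: the median level of the 8 genes, as log2 CPM relative to each gene's own mean over the 9 libraries, was −0.87, −0.21 and −0.61 in the controls against 0.43, 0.50 and 0.67 in Ind_Z. The groups did not overlap in this measure. The libraries are of bulk cultures, so a larger share of cells holding these transcripts and more transcript per cell cannot be told apart.

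The Hsp70 system showed the same direction in part. Of 13 genes for cytosolic Hsp70 proteins and their cofactors 3 rose and none fell, with a median of 0.56, and 7 rose without control13 (median 0.72). *SSA4*, the stress-inducible Hsp70 gene, was at 167, 355 and 226 CPM in control and 709, 621 and 750.4 CPM in Ind_Z (1.48 ± 0.25 [1.42], adjusted p = 0.0213). *FES1*, whose product releases nucleotide from Hsp70, was at 72.9, 150 and 98.7 and 254, 323 and 349 CPM (1.53 ± 0.25 [1.48]). *SSE2*, a second exchange factor gene, rose by 0.72 ± 0.14 [0.73]. In the Hsp90 list 1 of 12 genes rose, *AHA1*, which encodes an activator of the Hsp90 ATPase (0.69 ± 0.15 [0.67]), and the list median was 0.23 (0.25 without control13, with 3 called). *OPI10*, the yeast relative of the Hsp70 import factor Hikeshi, rose from 11.3, 24.5 and 9.23 to 43.3, 59.2 and 75.9 CPM (1.95 ± 0.34 [1.75]). Mitochondrial chaperones (10 genes, median 0.03) and folding factors of the endoplasmic reticulum (17 genes, median 0.20) had no called member with all controls, and the lowest p in each belonged to the disaggregase gene *HSP78* (0.78 [0.66], adjusted p = 0.0670) and the oxidase gene *ERO1* (0.64 [0.66], adjusted p = 0.0546). Without control13, 2 and 7 of these were called higher, *HSP78* and *ERO1* among them. Among 18 stress and heat regulators none was called with all controls, and 3 rose and 1 fell without control13 (medians −0.04 and −0.13). *HSF1* was at −0.15 [−0.25], *MSN2* at −0.04 [−0.07], *MSN4* at −0.46 [−0.56], and the lowest p was that of *USV1* (1.05 [1.32], adjusted p = 0.0888).

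The promoters of the called genes were searched for a strict heat shock element, taken as 3 alternating units of GAA and TTC with any 2 bases between units, on both strands, in the window from 250 bases before to 50 bases after the start codon. Sequences are from the RefSeq reference R64, which is that of a laboratory strain and not of CAT-1. The element was found in 6 of 103 promoters of genes called higher (5.83%), in 0 of 25 of genes called lower and in 45 of 5648 promoters of all genes tested (0.797%). The 6 genes were *OPI10*, *FES1*, *RPN4*, *ZPR1*, *LST8* and YDL012C. No match to this strict form was found in the windows of *BTN2*, *CUR1*, *APJ1*, *HSP104*, *SIS1*, *SSA4*, *SSE2*, *AHA1* or *HSP30*. The windows of *LST8* and *ZPR1* adjoin those of the oppositely transcribed *SIS1* and YGR210C, so those matches lie between genes that both rose. The match lay 186 bases before the start codon in *OPI10*, 171 in *FES1*, 21 in *RPN4*, 220 in *ZPR1* and 182 in YDL012C, while *LST8* held 3 overlapping matches. A stress response element, AGGGG on either strand, was in 20.4% of promoters of genes called higher, 16.0% of those called lower and 21.8% of those of all genes tested. *DDR2* had 3 of them, at 248, 203 and 175 bases before the start codon. A match is only a match of letters and the factors' binding was not measured. The windows of 5 genes with heat shock elements and that of *DDR2* are shown 5′ to 3′ on the strand of the gene, to let the element be read in its place, with heat shock elements in capitals for the first 5 and the stress response elements (read as CCCCT on this strand) in capitals for *DDR2*.
OPI10 (R64, chrXV:265179-265478, plus strand): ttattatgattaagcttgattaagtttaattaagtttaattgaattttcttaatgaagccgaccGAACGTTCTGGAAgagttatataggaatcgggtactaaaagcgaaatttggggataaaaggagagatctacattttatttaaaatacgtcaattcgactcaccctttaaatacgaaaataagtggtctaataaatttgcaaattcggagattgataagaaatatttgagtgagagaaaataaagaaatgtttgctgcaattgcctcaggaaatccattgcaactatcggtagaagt
FES1 (R64, chrII:444644-444943, minus strand): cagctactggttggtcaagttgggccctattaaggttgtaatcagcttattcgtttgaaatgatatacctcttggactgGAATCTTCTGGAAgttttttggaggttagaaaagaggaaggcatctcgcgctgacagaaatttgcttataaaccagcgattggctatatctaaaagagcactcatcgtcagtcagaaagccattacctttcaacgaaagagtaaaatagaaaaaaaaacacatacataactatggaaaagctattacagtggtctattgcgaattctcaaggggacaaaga
RPN4 (R64, chrIV:416659-416958, minus strand): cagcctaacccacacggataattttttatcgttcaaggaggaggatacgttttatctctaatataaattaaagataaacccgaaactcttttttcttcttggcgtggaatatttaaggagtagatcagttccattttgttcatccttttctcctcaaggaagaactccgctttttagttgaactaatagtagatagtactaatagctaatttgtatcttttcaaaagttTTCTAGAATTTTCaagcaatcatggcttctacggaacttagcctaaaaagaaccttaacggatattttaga
ZPR1 (R64, chrVII:914991-915290, plus strand): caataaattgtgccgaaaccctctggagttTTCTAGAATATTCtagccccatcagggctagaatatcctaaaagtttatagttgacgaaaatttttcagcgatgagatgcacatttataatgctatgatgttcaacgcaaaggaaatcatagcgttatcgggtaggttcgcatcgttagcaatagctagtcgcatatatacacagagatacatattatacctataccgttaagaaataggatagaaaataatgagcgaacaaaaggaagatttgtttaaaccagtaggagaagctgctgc
LST8 (R64, chrXIV:619817-620116, plus strand): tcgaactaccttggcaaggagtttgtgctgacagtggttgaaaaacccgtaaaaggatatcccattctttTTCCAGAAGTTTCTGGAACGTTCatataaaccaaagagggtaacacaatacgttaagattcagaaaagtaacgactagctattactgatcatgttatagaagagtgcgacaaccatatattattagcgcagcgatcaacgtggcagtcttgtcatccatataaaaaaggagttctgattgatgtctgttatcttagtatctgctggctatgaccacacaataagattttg
DDR2 (R64, chrXV:231706-232005, minus strand): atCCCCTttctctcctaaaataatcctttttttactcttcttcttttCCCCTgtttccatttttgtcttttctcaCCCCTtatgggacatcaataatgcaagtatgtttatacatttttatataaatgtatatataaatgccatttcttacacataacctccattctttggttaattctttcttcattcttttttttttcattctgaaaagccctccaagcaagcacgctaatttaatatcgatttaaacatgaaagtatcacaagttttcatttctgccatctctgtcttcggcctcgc

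Further motifs were searched in the same windows and on both strands. The sterol element TCGTATA was in 5.83% of promoters of genes called higher and 4.20% of all, the Rgt1-type CGGANNA in 23.3% and 26.7%, and the Yap1-type TTACTAA or TGACTAA in 10.7% and 11.3%. The Aft1-type TGCACCC was in 0.971% and 1.29%, and the Cbf1-type TCACGTG in 0 of 103 and 2.05%.

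Beyond chaperones, several genes of protein turnover changed. *RPN4*, encoding the transcription factor that drives proteasome genes, rose from 309.6, 355 and 283 to 512, 516 and 553 CPM (0.74 ± 0.13 [0.67]). *UBR2*, the gene of a ubiquitin ligase that acts on Rpn4, fell from 231, 207 and 208 to 148, 135 and 147 CPM (−0.59 ± 0.12 [−0.61]). *UBC4*, a ubiquitin-conjugating enzyme gene for abnormal proteins, rose by 0.69 ± 0.13 [0.61]. *RPN4* was the 1 called of 38 genes on the proteasome list, whose median was −0.03 (−0.05 without control13, with 1 higher and 2 lower). *UBC4* was the 1 called of 21 on the ubiquitin list, with a median of −0.03 in either fit (2 higher and 2 lower without control13). *ROQ1*, whose product redirects the ligase Ubr1 in stressed cells, was at 7.18, 13.9 and 5.02 CPM in control and 22.5, 25.1 and 31.5 CPM in Ind_Z (1.55 ± 0.30 [1.35]). The Cdc48 adaptor gene *UBX4* fell by 0.79 ± 0.14 [0.68]. Autophagy genes had 0 of 37 called with all controls and a median of −0.16, the lowest p being that of *ATG2* (−0.50 [−0.59], adjusted p = 0.0702), while 2 were called higher and 8 lower without control13 (median −0.23).

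Some dedicated chaperones of the translation machinery rose as well. *YAR1*, which encodes the chaperone of a small-subunit ribosomal protein, was at 35.0, 57.5 and 37.7 CPM in control and 105, 114 and 113 CPM in Ind_Z (1.35 ± 0.18 [1.27]). *ZPR1*, encoding the folding factor of translation elongation factor eEF1A, was at 147, 229.5 and 177 and 390.3, 418 and 422 CPM (1.15 ± 0.17 [1.13]). In both genes all Ind_Z libraries were close together, and control12 was the highest control.

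Hexose transport held the largest changes of all called genes. *HXT2*, a transporter gene induced at low glucose, was at 19.0, 27.9 and 19.3 CPM in control and 120.1, 469 and 189 CPM in Ind_Z (3.54 ± 0.47 [3.47], adjusted p = 0.00696). *HXT1*, encoding the low-affinity transporter, was at 25.9, 32.0 and 20.5 and 147, 432 and 308 CPM (3.49 ± 0.41 [3.35], adjusted p = 0.00588). For both, Ind_Z replicate 1 was the lowest and replicate 2 the highest of the group, and no library came near the controls. *HXT5*, a transporter gene of slow growth, rose more modestly, from 28.8, 30.6 and 32.5 to 45.1, 47.6 and 65.9 CPM (0.79 ± 0.16 [0.84]). The other 12 of 15 hexose transporter genes were not called with all controls, and the list median was 0.29 (0.17 without control13, with 4 called). Of 17 regulators of glucose sensing and repression 3 rose (median 0.15), and without control13 5 rose and 1 fell (median 0.09). The 3 were *MTH1* (0.85 ± 0.17 [0.82]) and *STD1* (0.73 ± 0.15 [0.66]), a related pair of proteins that act with Rgt1 to restrain *HXT* genes, and *ADR1* (1.27 ± 0.25 [1.05]), the activator of genes for ethanol and fatty acid use. *ADR1* was at 393, 590.4 and 279 CPM in control and 985, 983 and 1073 CPM in Ind_Z, so that control12 lay well above control13. *NRG1*, a repressor of glucose-repressed genes, rose by 0.93 ± 0.20 [0.76]. Sucrose and maltose genes had 0 of 10 called in either fit and a median of 0.21, with the maltose permease gene *MAL31* lowest in p (0.50 [0.42], adjusted p = 0.115).

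**Figure D2:**
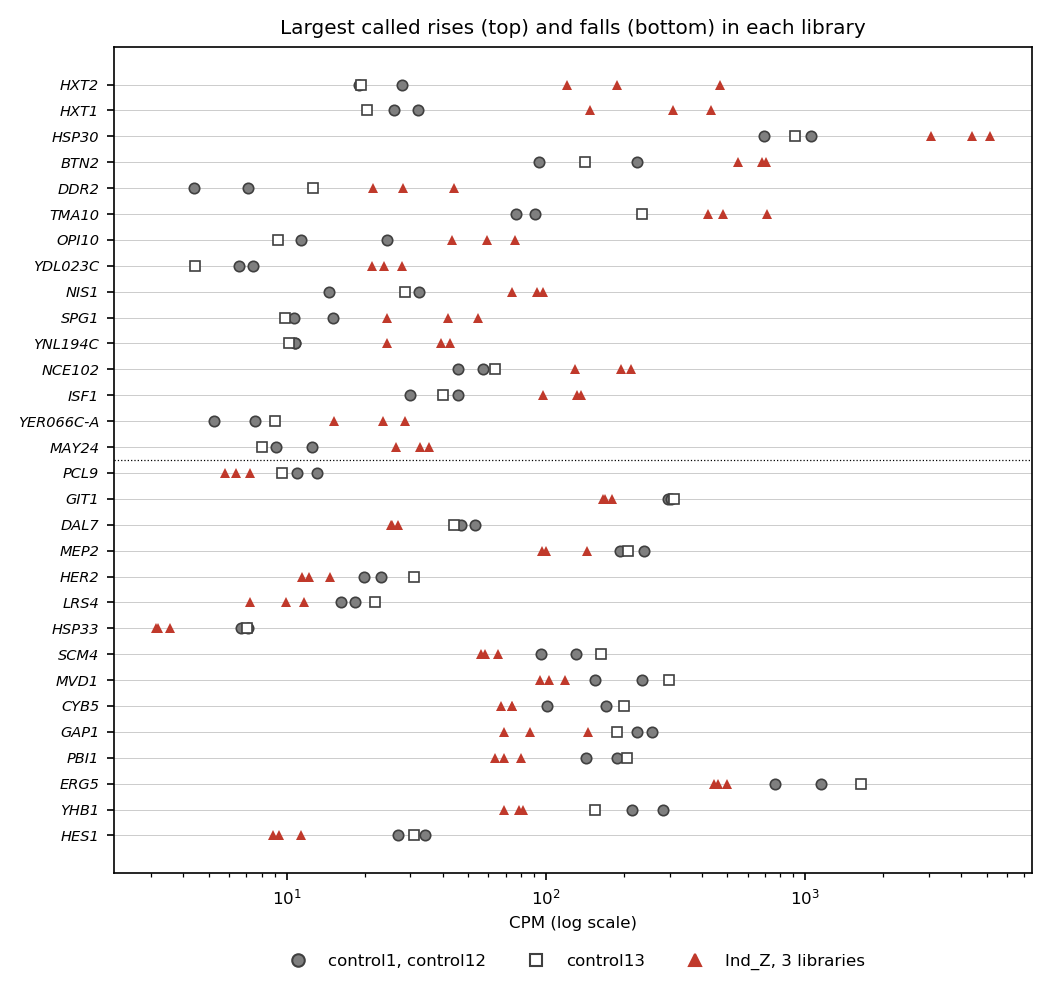
CPM in each library (x axis, log scale) of the 15 called genes that rose most and the 15 that fell most. Genes were limited to a mean count of 50 or more and to groups that do not overlap. Grey circles are control1 and control12, open squares control13 and red triangles the 3 Ind_Z libraries. In every row the triangles lie wholly to one side of the controls, as the choice of genes required.

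Single genes of the plasma membrane and cell surface were called in several lists. *HSP30*, whose product restrains the plasma membrane proton ATPase under stress, was among the most abundant called transcripts, at 692, 1051 and 916 CPM in control and 3064, 4390 and 5166 CPM in Ind_Z (2.25 ± 0.29 [2.28], adjusted p = 0.00683). It was the 1 of 7 genes on the list of plasma membrane stress proteins and the proton ATPase that was called, and without control13 the count was 4 (list medians 0.54 and 0.68). *NCE102*, which encodes a protein of eisosomes, the furrows of the plasma membrane that sense sphingolipids, was at 46.0, 57.2 and 63.6 and 129.8, 195 and 213 CPM (1.69 ± 0.22 [1.80]). YNL194C, of the *SUR7* family found at the same sites, was at 10.7, 10.8 and 10.2 and 24.4, 39.4 and 42.5 CPM (1.73 ± 0.21 [1.71]). The controls of YNL194C lay within 1 CPM of each other. These were 2 of 16 eisosome genes, whose median was 0.12 (0.09 without control13, with 4 higher and 1 lower).

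In the weak organic acid list 3 of 15 genes rose, with a median of 0.41 (0.39 without control13, with 7 called): *HSP30*, the cell wall protein gene *SPI1* (1.48 ± 0.25 [1.31]) and *TPO2* (1.09 ± 0.19 [1.24]), a polyamine exporter gene whose reads may be shared with its close copy *TPO3*. *SPI1* was at 295, 301 and 198 CPM in control and 567, 734 and 908 CPM in Ind_Z. *RSB1*, which encodes a membrane protein that confers resistance to sphingoid bases, rose by 1.10 ± 0.16 [1.04], the 1 gene called of 25 on the sphingolipid list and of 17 on the drug efflux list (medians 0.17 and 0.06). Without control13, 10 sphingolipid and 5 drug efflux genes were called, all higher (medians 0.32 and 0.09). *PMC1*, the vacuolar calcium pump gene, was at 314, 317 and 263 and 590.3, 639 and 696 CPM (1.11 ± 0.17 [1.03]), and *CMK2*, a calmodulin-dependent kinase gene, was at 89.7, 89.5 and 86.1 and 165, 177 and 193 CPM (1.01 ± 0.13 [0.99]). Calcium pump and kinase transcripts were tight within both groups. The magnesium transporter gene *ALR1* (0.55 ± 0.12 [0.52]), the arrestin gene *RIM8* of the external pH response (0.98 ± 0.15 [1.04]), *ZEO1* of the cell periphery (1.16 ± 0.23 [1.18]), the exocytic SNARE gene *SNC2* (0.71 ± 0.16 [0.66]) and *GPI18* of glycolipid anchor synthesis (0.58 ± 0.12 [0.60]) also rose.

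Few structural cell wall genes were called. Of 18 mannoprotein genes 2 rose, *SPI1* and the siderophore-binding *FIT1* (1.01 ± 0.22 [0.98]), and the list median was −0.41, against 0.22 without control13, where 5 rose and 1 fell. Mannoprotein genes in control13 were above the other controls by a median of 1.25. None of 5 PIR proteins, 26 glucan and chitin genes or 19 genes of cell wall integrity signalling was called with all controls (medians −0.38, −0.04 and −0.02). Without control13 1, 5 and 2 of these rose and 1 glucan and chitin gene fell (medians 0.08, 0.30 and 0.06). With all controls the lowest p-values belonged to *PIR1* (−0.38 [−0.35], adjusted p = 0.333), the chitin synthase gene *CHS1* (0.43 [0.46], adjusted p = 0.135) and the sensor gene *SLG1* (0.35 [0.31], adjusted p = 0.102). Of 14 flocculins and their regulators *NRG1* was the 1 called (2 without control13, with medians of 0.17 and 0.24).

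General stress genes rose in part. Of 40 genes on that list 4 rose and none fell, with a median of 0.19, and without control13 12 rose and 1 fell (median 0.27). *HSP12*, encoding a small membrane-associated stress protein, was at 0.671, 0.831 and 1.41 CPM in control and 3.26, 8.13 and 6.02 CPM in Ind_Z (2.69 ± 0.40 [2.87], adjusted p = 0.0127). *DDR2*, a multistress gene, was at 7.08, 4.38 and 12.6 and 21.6, 28.1 and 44.3 CPM (2.05 ± 0.37 [2.43]). *TMA10*, a ribosome-associated stress protein gene, was at 76.9, 90.4 and 234 and 422, 482 and 710.2 CPM (2.02 ± 0.42 [2.69]). In all 3 of these genes control13 was the highest control, and the change was larger without it. *SPG1*, needed for survival in stationary phase, was at 15.03, 10.7 and 9.83 and 24.5, 41.9 and 54.5 CPM (1.73 ± 0.32 [1.63]). *ECL1*, named for its effect on chronological lifespan, rose by 1.11 ± 0.13 [1.19].

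Carbohydrate reserves and defence against oxidants gave few calls. Of 10 trehalose and 13 glycogen genes none was called with all controls, with medians of −0.11 and −0.16 (0.12 and −0.03 without control13, where 1 glycogen gene rose and 1 fell) and the lowest p at *TPS3* (−0.44 [−0.26], adjusted p = 0.163) and *PIG1* (−0.83 [−0.995], adjusted p = 0.0747). Of 21 peroxiredoxin, thioredoxin and glutathione genes none was called (median −0.23, and −0.04 without control13, with 2 lower), with *TRX3* lowest in p (−0.81 [−0.84], adjusted p = 0.0648). *YHB1*, the flavohemoglobin gene that detoxifies nitric oxide, fell from 284, 214 and 154 to 81.6, 68.6 and 78.8 CPM (−1.51 ± 0.25 [−1.70], adjusted p = 0.0177), the 1 gene called of 10 on the list with catalase and superoxide dismutase (1 higher and 3 lower without control13). control13 was the lowest control for *YHB1* and the fall was larger without it. *GTO3*, a glutathione transferase gene on no list, rose from 8.01, 10.9 and 9.83 to 24.2, 29.4 and 32.5 CPM (1.59 ± 0.21 [1.61]). *GRX6*, a glutaredoxin gene of the secretory pathway, rose by 0.76 ± 0.13 [0.68], though its reads may be shared with the overlapping YDL009C. *HSP33*, of the Hsp31 family, fell by 1.07 ± 0.21 [1.06] at 3.12 to 7.08 CPM and has close copies in *HSP32* and *SNO4*.

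Of 16 genes from squalene epoxidation to ergosterol 2 fell and none rose, with a median of −0.67 and 15 of 16 fold changes below 0; without control13 5 fell, the median was −0.46 and 12 of 16 were below 0. *ERG5*, a late sterol desaturase gene, was at 1146, 764 and 1640 CPM in control and 443, 501 and 459.8 CPM in Ind_Z (−1.34 ± 0.28 [−1.03], adjusted p = 0.0418). *CYB5*, encoding cytochrome b5, an electron carrier for sterol and lipid modifying enzymes, was at 171, 101 and 201 and 67.2, 74.3 and 74.2 CPM (−1.13 ± 0.21 [−0.92]). In the mevalonate part of the pathway 1 of 10 genes fell in either fit, *MVD1*, at 235, 154 and 297 and 94.6, 118 and 103 CPM (−1.12 ± 0.22 [−0.89]), with medians of −0.53 and −0.40. For all 3 genes control12 was the lowest control and control13 the highest. The median level of the 16 late genes, relative to each gene's mean over the 9 libraries, was 0.54, 0.12 and 1.03 in the controls, −0.14, −0.03 and −0.05 in Ind_Z and −0.59, −0.37 and −0.32 in Ind_B replicates 1, 2 and 3.

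Regulators of the pathway were among the rises. *UPC2*, encoding the sterol-sensing activator, rose from 142, 182 and 152 to 278, 296 and 326 CPM (0.92 ± 0.14 [0.89]), and its relative *ECM22* rose from 29.4, 36.0 and 36.7 to 56.4, 68.8 and 59.8 CPM (0.86 ± 0.13 [0.91]). These were the 2 called of 14 genes for sterol regulation, esterification and uptake, whose median was 0.01 (0.08 without control13, with 3 higher and 1 lower). *HES1*, one of 7 oxysterol-binding protein genes, fell from 34.2, 27.0 and 31.1 to 11.3, 8.84 and 9.36 CPM (−1.63 ± 0.18 [−1.61], adjusted p = 0.00588). It had the largest fall of the called genes and was the 1 called of its 7 (1 higher and 1 lower without control13). No gene of fatty acid synthesis, desaturation and activation was called (19 genes, median −0.14), with *FAA4*, an acyl-CoA synthetase gene, lowest in p (−0.92 [−0.75], adjusted p = 0.0728). Without control13, 4 of these rose and 3 fell, *FAA4* among the latter. Of 26 phospholipid genes (median 0.08, and 0.15 without control13, with 7 higher and 1 lower) *GIT1*, encoding the glycerophosphoinositol permease, was called and fell from 296, 305 and 313 to 169.6, 179.8 and 165 CPM (−0.83 ± 0.12 [−0.81]), and the inositol phosphatase gene *INM1*, on no list, rose by 0.61 ± 0.13 [0.49]. The phosphoinositide phosphatase gene *INP54* fell by 0.60 ± 0.13 [0.65] and *SFH5*, of phosphatidylinositol transfer, rose by 1.15 ± 0.24 [1.07].

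Of 19 genes for amino acid and ammonium permeases 3 fell and none rose, with a median of 0.01, and without control13 4 fell and 1 rose (median −0.04). *GAP1*, the general amino acid permease gene, was at 224, 256 and 188 CPM in control and 87.0, 145 and 68.7 CPM in Ind_Z (−1.16 ± 0.24 [−1.27], adjusted p = 0.0411). *MEP2*, encoding the high-affinity ammonium permease, was at 193, 239.7 and 208 and 100.2, 144 and 96.3 CPM (−0.92 ± 0.18 [−0.93]), and *MEP3*, a second ammonium permease gene, was at 261, 219.7 and 291 and 156, 155 and 153 CPM (−0.73 ± 0.13 [−0.63]). For *GAP1* and *MEP2* Ind_Z replicate 2 was the nearest to the controls. In the list of allantoin, urea and other nitrogen catabolite genes 2 of 25 fell and 1 rose (median −0.23), and without control13 7 fell and 2 rose (median −0.28). *DAL7*, a malate synthase gene of allantoin use, was at 53.4, 47.2 and 44.4 and 25.6, 25.3 and 26.9 CPM (−0.90 ± 0.14 [−0.95]), with each group within a narrow range, and *PUT2*, of proline breakdown, fell by 0.52 ± 0.11 [0.47]. The cytosolic asparaginase gene *ASP1* was the member that rose (0.62 ± 0.11 [0.66]).

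The counts for amino acid synthesis depended on control13. Of 28 sulfate reduction and methionine genes *MET3*, encoding ATP sulfurylase, was the 1 called, at 289, 277 and 296 CPM in control and 439, 782 and 646 CPM in Ind_Z (1.12 ± 0.19 [1.14]); without control13 13 of 28 were called higher, and the list medians were 0.31 and 0.55. No gene of sulfur source uptake was called (11 genes, median 0.47; *MMP1* 0.59 [0.54], adjusted p = 0.0571), and 4 were without control13. Of 50 other amino acid synthesis genes with *GCN4*, *AAT1*, a mitochondrial aspartate aminotransferase gene, rose (0.59 ± 0.11 [0.59]), and without control13 18 rose and 1 fell. No lysine gene (10; *LYS12* 0.95 [1.35], adjusted p = 0.135) and no branched-chain gene (12; *LEU9* 0.63 [0.79], adjusted p = 0.0605) was called with all controls, while 6 of each were called higher without control13. *LYS12* was at 309.5, 379.8 and 676 CPM in control and 789.5, 936 and 899.5 CPM in Ind_Z, so control13 stood nearer to Ind_Z than to the other controls.

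Cytosolic ribosomal protein genes were above the median of all genes in both fits but were called almost only without control13. Of 80 genes for the large subunit 1 was called with all controls (median 0.39) and 73 without control13 (median 0.81). For the small subunit 0 of 56 were called with all controls (median 0.35) and 50 without control13 (median 0.79). *RPL28* was the 1 gene called with all controls, at 105, 102 and 98.1 and 168, 197 and 195 CPM (0.88 ± 0.14 [0.85]), and its 3 controls lay close together. In the small subunit *RPS22A* had the lowest p (0.92 [1.39], adjusted p = 0.120; reads may be shared with *RPS22B*). The median level of the large-subunit genes, relative to each gene's mean, was −0.30, −0.32 and 0.65 in the controls, so control13 was above all 3 Ind_Z libraries at 0.41, 0.54 and 0.52. Translation factors had 0 of 29 called with all controls and 11 without control13 (medians 0.27 and 0.35; *SUI3* 0.43 [0.44], adjusted p = 0.0722). Ribosome biogenesis genes (94) had none called with all controls and 2 higher and 6 lower without control13 (medians 0.03 and −0.05), and *RPA135*, an RNA polymerase I subunit gene, had the lowest p (0.53 [0.53], adjusted p = 0.0730). Mitochondrial ribosomal proteins had 0 of 87 called with a median of −0.21 in either fit, 77 of 87 fold changes being below 0, and 10 fell without control13. *RSM23* was lowest in p (−0.42 [−0.35], adjusted p = 0.0730).

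Central carbon metabolism showed few calls. Of 11 genes for pyruvate carriers and pyruvate dehydrogenase (median −0.11, and 0.13 without control13, with 2 called higher), *MPC3*, the mitochondrial pyruvate carrier subunit gene used in respiration, rose from 5.53, 6.50 and 8.23 to 14.98, 16.6 and 22.3 CPM (1.45 ± 0.28 [1.59]). *AAC3*, an ADP/ATP carrier gene of low oxygen and the 1 called of 15 oxygen-responsive genes (2 higher and 1 lower without control13, with medians of −0.19 and 0.15), rose from 9.92, 15.6 and 23.3 to 28.0, 42.6 and 41.4 CPM (1.25 ± 0.27 [1.56]). Upper and lower glycolysis had 0 of 12 and 0 of 11 called with all controls and medians of −0.00042 and −0.02, and 6 and 3 genes called higher without control13 (medians 0.47 and 0.51). *HXK2*, the main hexokinase gene, was at 86.5, 101 and 239.8 CPM in control and 241, 333 and 306 CPM in Ind_Z (1.05 ± 0.33 [1.65], adjusted p = 0.135, and called without control13). Of 10 glycerol genes none was called with all controls (median 0.45, lowest p at the glycerol symporter gene *STL1*, 0.87 [0.73], adjusted p = 0.103) and 7 rose without control13 (median 0.66). Of 11 genes of acetaldehyde and acetate metabolism none was called, and 2 rose without control13, with *ALD6*, an aldehyde dehydrogenase gene, lowest in p (1.13 [1.28], adjusted p = 0.0783). Nuclear genes of the respiratory chain and ATP synthase had 0 of 37 called and a median of −0.46, with 34 of 37 fold changes below 0 in either fit, and 2 fell without control13 (median −0.27; *RIP1* −0.52 [−0.48], adjusted p = 0.0830). With all controls no called gene came from beta-oxidation (20 genes), the mitochondrially encoded proteins (7) or pyruvate decarboxylases and alcohol dehydrogenases (11), where the lowest p-values were those of *FOX2* (−0.51 [−0.54]), *ATP6* (−0.25 [−0.28]) and *PDC6* (−0.81 [−0.62]), at adjusted p of 0.102, 0.601 and 0.132. Without control13, 3 beta-oxidation genes fell, 0 mitochondrially encoded genes were called and 3 of the last list rose.

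Cell cycle genes with calls were few. *NIS1*, whose product sits at the bud neck, rose from 14.6, 32.4 and 28.7 to 73.7, 92.3 and 97.6 CPM (1.82 ± 0.28 [1.92]), and *LRS4*, of the monopolin complex, fell by 0.95 ± 0.20 [0.84]; they were the 2 called of 34 genes for mitosis and daughter separation (2 higher and 4 lower without control13). *PCL9*, a cyclin gene for the kinase Pho85, fell by 0.81 ± 0.17 [0.88], the 1 called of 19 G1 cyclins and related genes, whose median was −0.39. Without control13 7 of these rose and 1 fell, and the median was 0.12. Of 34 DNA synthesis genes and 11 histone genes none was called with all controls, while 18 and 7 rose without control13 and 2 DNA synthesis genes fell. The lowest p-values were those of *CDC6* (−1.07 [−0.53], adjusted p = 0.102) and *HHF1* (0.85 [0.99], adjusted p = 0.107; reads may be shared with *HHF2*). Of the mating list 2 of 25 rose, the fusion protein gene *PRM1* (1.27 ± 0.25 [1.11]) and the kinase gene *FUS3* (0.68 ± 0.15 [0.67]), and the list median was −0.22 (−0.23 without control13, with 4 higher and 4 lower). Meiosis genes had none of 34 called with all controls, and 1 rose and 1 fell without control13 (*SPO21* 0.82 [0.68], adjusted p = 0.0936).

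Metal, phosphate and vitamin genes gave single calls. *FIT1* was the 1 called of 30 iron uptake genes (median 0.04), and without control13 4 rose and 3 fell. *PHO3*, a thiamine-repressible acid phosphatase gene, rose by 1.06 ± 0.20 [1.13] and was the 1 called of 24 phosphate genes and of 18 thiamine and pyridoxine genes. Without control13 6 phosphate genes rose, and 2 thiamine and pyridoxine genes rose and 2 fell. *IMD3*, an IMP dehydrogenase gene of GTP synthesis, rose by 1.09 ± 0.16 [1.20], the 1 called of 28 genes for NAD and one-carbon metabolism (7 higher without control13, with medians of −0.11 and 0.11). With all controls none of 18 zinc and copper genes was called (*IZH4* −1.27 [−1.10], adjusted p = 0.0624), nor any of 9 seripauperins (*PAU3* 1.38 [1.49], adjusted p = 0.0744, with near-identical copies). Without control13, 1 zinc and copper gene rose and 4 fell, and 1 seripauperin gene rose. *PMC1* was the 1 called of 19 ion and osmotic stress genes (median 0.32, and 0.28 without control13, with 6 called higher). The vacuolar protease list had 1 of 11 genes called, *PBI1*, whose own role is left out here, and it fell from 188, 143 and 205 to 63.8, 69.1 and 79.9 CPM (−1.33 ± 0.17 [−1.22]), while 2 rose and 1 fell without control13. Signal recognition particle genes (9; *SRP21* 0.19 [0.24], adjusted p = 0.515) and small nucleolar RNAs (48; *SNR18* 1.22 [1.24], adjusted p = 0.249) had none called with all controls, and 1 small nucleolar RNA rose without control13.

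Of the 131 called genes, 73 were on none of the lists. Signalling genes among the rises were *LST8*, a subunit of the TOR complexes (1.08 [1.05]), *RAS2*, a GTPase of the cAMP pathway (0.79 [0.85]), the kinase gene *VHS1* (1.28 [1.59]), the phosphatase-associated *SAP4* (0.74 [0.65]) and *MGA1*, a relative of heat shock factor (1.503 [1.41]). Nuclear and RNA genes that rose were the recombination ATPase gene *RDH54* (1.49 [1.58]), the endonuclease subunit gene *MMS4* (0.66 [0.63]), the chromatin remodeller subunit gene *SNF11* (1.09 [1.01]), the histone deacetylase subunit gene *PHO23* (0.59 [0.53]), the RNA-binding *HRP1* (0.87 [0.83]) and *URN1* (1.09 [1.05]). Metabolic genes that rose were the arginine-tRNA ligase gene YDR341C (0.82 [0.97]), the uracil salvage gene *FUR1* (0.60 [0.59]), the aldo-keto reductase family gene YPL088W (0.62 [0.61]) and the oxidase assembly factor gene *COA4* (1.08 [1.01]). *SOL1* rose too (0.88 [0.90]). Others were *ISF1* (1.66 [1.70]), *MAY24* (1.64 [1.55]), *LAF1* (1.33 [1.39]), *MPF1* (1.09 [1.05]), *RTS3* (0.84 [0.94]), *RIE1* (0.78 [0.73]), *PAL2* (0.93 [0.90]), *RCR1* (0.89 [0.83]), *TDA6* (1.19 [1.23]), *PER33* (0.67 [0.72]) and *DIA1* (0.87 [0.75], overlapping YMR316C-A). The remaining falls were the kinase gene *ELM1* (−0.59 [−0.66]), the histone deacetylase gene *HST4* (−0.79 [−0.70]), the ribosome assembly gene *KRI1* (−0.72 [−0.68]), the mitochondrial genes *HER2* (−0.92 [−0.73]), *MDM36* (−0.53 [−0.58]) and *AIM24* (−0.54 [−0.52], overlapping YJR079W), and *SCM4* (−1.12 [−0.92]).

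Several of the larger changes were in rows that the reference table does not annotate or describes as uncharacterized. YDL023C was at 6.56, 7.403 and 4.42 CPM in control and 21.3, 27.8 and 23.8 CPM in Ind_Z (1.93 ± 0.20 [1.79], adjusted p = 0.00588), and YER066C-A was at 5.27, 7.55 and 9.03 and 15.3, 23.5 and 28.6 CPM (1.66 ± 0.26 [1.81]). YLR339C rose by 1.03 ± 0.21 [1.01]. These 3 rows had no entry in the reference table, so their overlap with other genes was not examined. Genes described as uncharacterized that rose by more than 1 included YPR015C (1.49 [1.504]), YER053C-A (1.43 [1.45]), YDL012C (1.41 [1.31]) and YDR215C (1.36 [1.40]). YJL107C (1.24 [1.13]) and *PRM10* (0.90 [0.92]) overlap and may share reads, as do YDR209C (1.08 [1.002]) and *CPP2*. YER160C, a retrotransposon gene with many near-identical copies, was at 0.258, 0.378 and 0.602 CPM in control and 1.73, 1.41 and 1.83 CPM in Ind_Z (2.23 ± 0.39 [2.43]), which cannot be assigned to 1 copy.

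**Figure D3:**
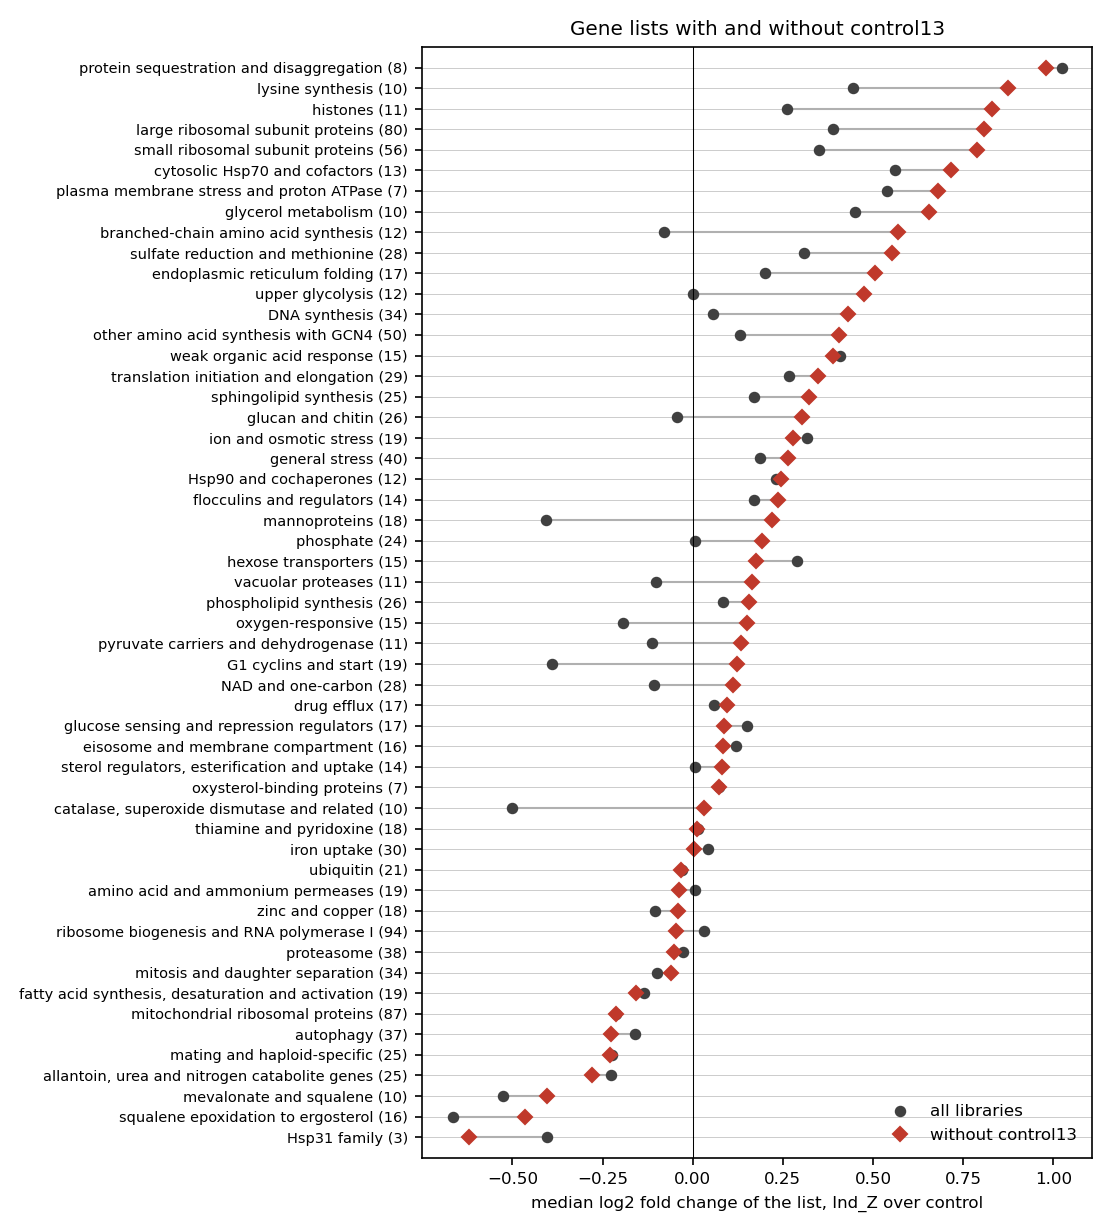
Median log2 fold change of Ind_Z over control (x axis) for each gene list with a called gene, or with at least 5 called without control13; the number of genes tested is in parentheses. Dark circles use all libraries and red diamonds leave out control13. The sequestration, Hsp70 and Hsp90 lists stay above 0 and the mevalonate and late sterol synthesis lists below 0. The median of the mannoproteins moves from −0.41 to 0.22.

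Leaving out control13 added 1082 calls, and most of the largest rises among them were in genes high in both control13 and Ind_Z. *RNR1*, the ribonucleotide reductase gene of S phase, was at 275, 312 and 2929 CPM in control and 1610, 1603 and 1699 CPM in Ind_Z. Its change was 0.48 with all controls (adjusted p = 0.756) and 2.49 without control13 (adjusted p = 0.000120). *MCD1*, encoding a cohesin subunit, was at 22.4, 23.0 and 316 and 106, 112 and 101 CPM, and its change turned from −0.15 to 2.23. *CLB6*, an S phase cyclin gene, was at 5.58, 4.84 and 157 and 22.9, 22.1 and 21.9 CPM, and its change turned from −1.24 to 2.10. For all 3 genes the Ind_Z libraries lay between control13 and the other controls, so which control is used sets the sign for *MCD1* and *CLB6*. DNA synthesis genes in control13 were above the other controls by a median of 1.07 and histone genes by 1.07.

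The other large rises found only without control13 were of mixed function. *TOS6* (2.63), *RNR3* (2.51) and *TOS4* (1.90) had the pattern of *RNR1*, with *RNR3* at 25.3, 64.4 and 659 CPM in control and 204, 342 and 212 CPM in Ind_Z. *TDH2*, a glyceraldehyde phosphate dehydrogenase gene with close relatives, was at 439, 790.4 and 2420 and 2523, 3158 and 2765 CPM (2.20). *RGI1* and *RTC3* were called at 2.39 and 2.15, and with all controls they were at 1.70 and 1.59 (adjusted p = 0.0764 and 0.0744). In *RGI1* and *RTC3* every Ind_Z library was above every control. *CWP1*, a cell wall mannoprotein gene, was called at 2.23, and its Ind_Z libraries were at 4.79, 23.9 and 7.85 CPM with replicate 2 far above the others. Its controls were at 2.53, 2.19 and 3.61 CPM. Large falls found only without control13 included the allantoin genes *DAL2* (−1.27, at 17.9, 14.8 and 8.43 and 7.98, 6.19 and 5.81 CPM) and *DAL3* (−1.17), which were lower in control13 than in the other controls. They also included *IZH4* of zinc homeostasis (−1.10), *AAD4* (−1.10, reads may be shared with *AAD14*), the mitochondrial citrate synthase gene *CIT3* (−1.02), *PIG1* of glycogen synthesis (−0.995), *SRL3* (−0.98), YOR392W (−1.06), YDR274C (−0.97) and YHR180W (−0.91).

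**Figure D4:**
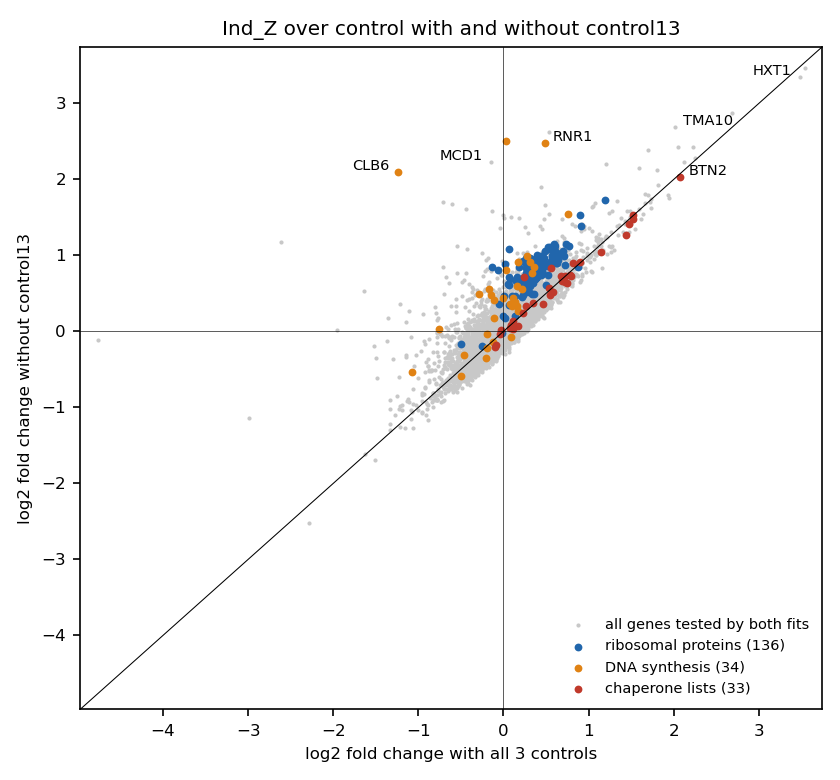
Log2 fold change of Ind_Z over control without control13 (y axis) against that with all 3 controls (x axis) for genes tested in both fits; the diagonal marks equal values. Of the 136 ribosomal protein genes (blue) 134 lie above the diagonal, as do 29 of 34 DNA synthesis genes (orange), 14 of the 33 genes of the chaperone lists (red) and 3013 of all 6137 genes.

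Which of these changes also set Ind_Z apart from the other antifoam was read from Ind_Z against Ind_B directly, a contrast of antifoam libraries only, with the spread estimated over all 9 libraries. There 26 of 6137 genes were called (0.424%), 22 higher (0.358%) and 4 lower (0.0652%) in Ind_Z. Without control13 the contrast called 1453 of 6178 genes (23.5%), 878 higher (14.2%) and 575 lower (9.31%), and a fit of the 6 antifoam libraries alone called 1251, the 26 being among both. With both controls and antifoams in the fit, edgeR called 13 without Ind_Z replicate 1 and 0 without any 1 of the other 5 antifoam libraries, where 917 to 1417 genes had an unadjusted p under 0.05, and DESeq2 called 631. Of the genes called against control, 12 of 106 rises were also called higher than Ind_B and 2 of 25 falls were also called lower, and without control13 these were 59 and 10. Both contrasts share the Ind_Z libraries, so the overlap is not independent.

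Stress and membrane genes were among those called against both control and Ind_B. *DDR2* was at 5.79, 5.46 and 3.94 CPM in Ind_B replicates 1, 2 and 3, none of them above the highest control, and Ind_Z was 2.64 higher (adjusted p = 0.0361). *HSP12* was at 1.17, 1.59 and 1.13 CPM in Ind_B (2.13, adjusted p = 0.0472), *NCE102* at 91.2, 62.7 and 66.6 CPM (1.28, adjusted p = 0.0472) and YNL194C at 16.1, 16.8 and 14.04 CPM (1.18, adjusted p = 0.0472). The other genes higher in both contrasts were *ISF1* (1.24), *ECL1* (0.92), *MPF1* (0.80), *RTS3* (0.86), *RPL28* (0.99), YDL023C (1.53), YER053C-A (1.82) and YLR339C (1.32). *HES1* (−1.001) and *DAL7* (−0.76) were lower in both. *HES1* was at 16.5, 23.6 and 19.8 CPM in Ind_B, between control and Ind_Z.

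Other leading genes were not called against Ind_B with all libraries. *HXT2* was at 173, 102 and 167 CPM in Ind_B. Of these, 173 and 167 CPM lay inside the Ind_Z range of 120.1 to 469 CPM, and 102 CPM lay below it. The difference of 0.81 was not called (adjusted p = 0.253). *HXT1* was at 102, 51.0 and 55.8 CPM, below every Ind_Z library (2.08, adjusted p = 0.0531). *HSP30* at 1790, 2207 and 1220 CPM, *BTN2* at 331, 334 and 289 CPM and *SSA4* at 418, 550.4 and 429 CPM also lay between the group means of control and Ind_Z, with differences of 1.28, 1.02 and 0.57 at adjusted p of 0.0720, 0.0767 and 0.183. *ERG5* was at 225, 356 and 394 CPM in Ind_B, and there the difference had the opposite sign to that against control (0.53, adjusted p = 0.259). A difference that missed the threshold does not show that the antifoams acted alike. The sequestration list had a median of 0.49 and the late sterol list of 0.42 for Ind_Z over Ind_B, with 0 called in either list with all libraries and 3 and 6 called higher without control13. Ribosomal protein genes had medians of 1.00 and 0.96 for the large and small subunits, with 2 and 1 called with all libraries and 78 and 51 without control13.

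**Figure D5:**
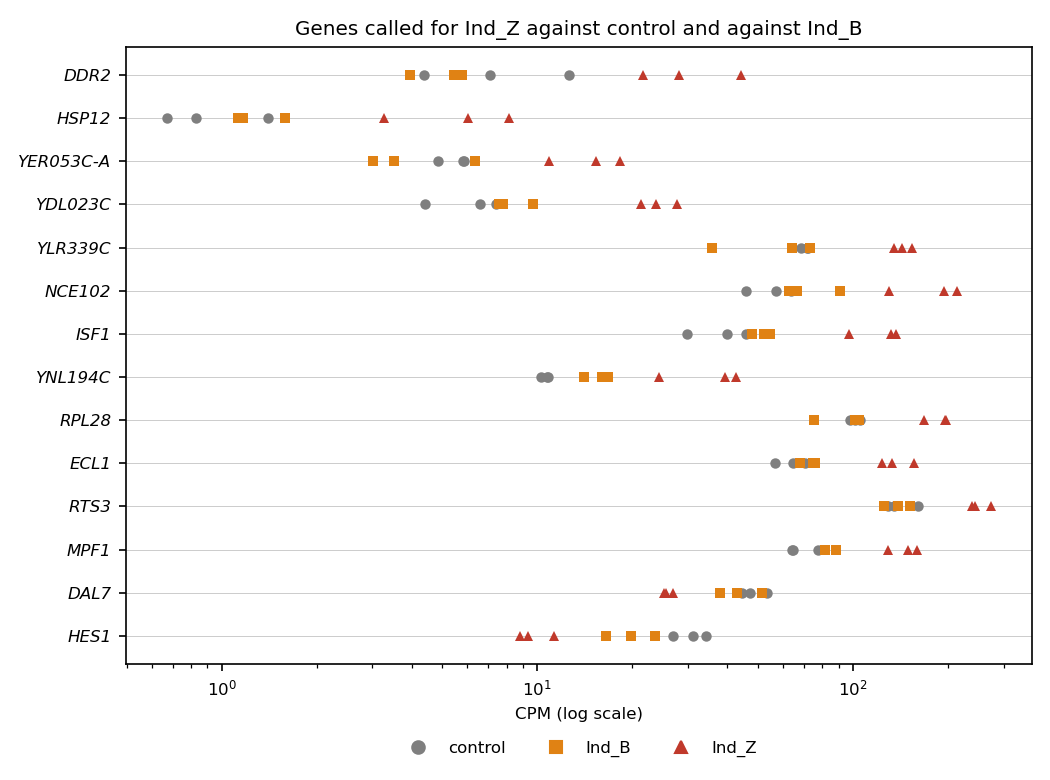
CPM (x axis, log scale) in each library of the 14 genes called for Ind_Z both against control and against Ind_B. Grey circles are controls, orange squares Ind_B and red triangles Ind_Z; Ind_Z stands wholly above the other 6 libraries for 12 genes and wholly below them for DAL7 and HES1.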

How the data were processed

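RNA of 9 CAT-1 samples was sequenced after enzymatic removal of ribosomal RNA, per the labels' protocols. The deposited values are raw counts of reads per gene in a single table of 6357 rows and 9 columns. TopHat2 2.0.9 and HTSeq 0.6.0 are named in the submitters' processing notes, with no role. The build, the annotation and whether counting used strand are not stated in the labels, so overlapping genes are uncertain. Columns were matched to samples by name; control12 and control13 entered the control group by their names and carry no replicate number. Rows were matched to the RefSeq R64 gene table for names, 5783 by locus tag and 65 by symbol, and 509 kept their own names. Close copies are gene pairs that BLAST+ aligned with 90% identity across 50% of a gene or more.

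Counts were analysed with edgeR 4.0.16 in R 4.3.3: filterByExpr, TMM factors and a quasi-likelihood fit with 1 mean per group over all 9 libraries (6 residual degrees of freedom, 5 without control13), with Benjamini-Hochberg adjustment over all genes tested. Tested on simulated data of 6120 genes for Ind_Z against control, the fit called 28% of genes given a 1.5-fold change and 86% at 2-fold. It called 98% at 4-fold, 100% at 8-fold and 11 genes given none. Apart from those changes all simulated libraries shared a mean per gene, so none stood apart as control13 did. A prior count of 2 was added for log2 CPM. The alternatives were each library left out, RLE and upper-quartile factors, other filters, the 6 libraries of a contrast, DESeq2 1.42.0 and a test against a 1.5-fold change. For Ind_Z against Ind_B, control1 and control12 were not left out, and upper-quartile factors, the mean count of 50 and the 1.5-fold test were not run.

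The members and the 73 gene lists were chosen with earlier results of these data known. Named by rule were the 15 largest rises and falls with a mean of at least 50 counts, up to 4 called members of a list or else its member of lowest p, regulators, any other called gene once, and the 10 largest rises and falls called only without control13. Of the promoters shown, those of *OPI10* and *DDR2* belong to the largest changes; *FES1*, *RPN4*, *ZPR1* and *LST8* were chosen after their matches were seen. Lists are described by counts and medians, without a set test.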

Additional observations from a re-analysis of the deposited data

How the results depend on the processing

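For Ind_Z against control, where edgeR called 131 genes (106 higher, 25 lower), leaving out 1 library gave 16 to 1213 calls (14 to 809 higher, 2 to 404 lower). The 6 libraries of the contrast alone gave 59 (52 and 7), DESeq2 446 (293 and 153) and the test against a 1.5-fold change 11 (10 and 1). With RLE or upper-quartile factors, no filter or a mean count of at least 50, the counts were 110 to 136. For Ind_Z against Ind_B, with 26 calls (22 higher, 4 lower), leaving out 1 library gave 0 to 1453 (0 to 878 and 0 to 575), the 6 antifoam libraries alone 1251 (799 and 452) and DESeq2 631 (443 and 188). Lower calls there were 2 with RLE factors and 2 without a filter. The antifoam libraries share replicate numbers, and the labels do not say whether these pair them. Deviations from the group mean in libraries of the same number correlated at −0.02, −0.24 and −0.44. With 3 libraries a group, these values cannot show whether a batch was shared. With the replicate block the contrast called 572 genes (480 higher, 92 lower), the 26 among them. No paired analysis was possible because, for Ind_Z against control, the columns control12 and control13 carry no shared replicate number. Among named genes the sign of the change depended on the library left out for 5, which ranged from −0.022 to 2.63 (*TOS6*), −0.51 to 2.51 (*RNR3*), −0.00070 to 1.90 (*TOS4*), −0.66 to 2.23 (*MCD1*) and −1.81 to 2.10 (*CLB6*), with the highest value of each without control13. The cause of these shifts was not tested. Of 73 list medians, 22 moved by more than the spread between libraries without control13. In the simulated data 28% of genes given a 1.5-fold change were called. Those data held no library set apart like control13, so the share may differ in the real libraries.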
